A study of Mus musculus with 16 samples.

Results

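Arid1b lies near the centromeric end of mouse chromosome 17 (GRCm38, chr17:4994332-5347656, plus strand), and the other expressed genes within 5 Mb of it are called flanking genes here. Of 18424 genes in the expression table, 47 overlapped the window from the start of the chromosome to position 10347656. Arid1b itself and the Tmem181 and Dynlt1 copies, 8 genes in all, were left out by symbol. A further 2 genes, Gm1604a and 1700110C19Rik, reached a normalized read count of 10 in 3 mice and 1 mouse, under the 4 mice required, which left 37 flanking genes. The copies were left out with their genotype values known. Position and level alone chose among the other genes. The first annotated gene of the chromosome starts at position 3042024, so the side of lower coordinates spans 1.952 Mb. It held 8 flanking genes, all between 1.44 and 1.91 Mb from Arid1b. The side of higher coordinates held the other 29, and none overlapped Arid1b. The 37 comprised 29 protein-coding genes, 4 pseudogenes and 4 noncoding RNA genes.

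The samples were prefrontal cortex RNA from 16 male C57BL/6N mice at postnatal day 120, with 4 mice in each of 4 groups. Heterozygous mice (HT) carried 1 copy of a protein-truncating Arid1b allele made with Cas9 nickase in zygotes and kept as a single line, and wild-type mice (WT) carried none. HT males were bred with WT females of the same C57BL/6N strain. Dams drank water with 0.2% saccharin, either alone (WT-Veh, HT-Veh) or with fluoxetine at 0.1 mg/ml (WT-Flx, HT-Flx), while their pups were between postnatal days 3 and 21, so the pups received the drug through milk. The labels do not say which pups shared a litter. HT mice inherit the allele and carry it in every cell, so the samples give the adult state of a lifelong change in gene dose.

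ARID1B is a DNA-binding subunit of the BAF (SWI/SNF) chromatin remodelling complex, which moves nucleosomes and opens enhancers and promoters across the genome. Loss of 1 copy causes a neurodevelopmental disorder in humans. Genes that lie beside an edited locus are of interest for separate reasons, since chromatin contacts within a neighbourhood, regulatory DNA inside the edited gene and DNA variants inherited with it can all act on nearby genes in cis. The flanking genes have no single function. They include regulators of the actin cytoskeleton and membrane traffic (Tiam2, Snx9, Synj2, Ezr) and signalling enzymes (Rps6ka2, Pde10a). Others are RNA and transcription factors (Scaf8, Gtf2h5, Qk) and mitochondrial and lipid genes (Tfb1m, Tmem242, Zdhhc14, Serac1, Mpc1).

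Some promoters of the flanking genes are shown for orientation, as RefSeq sequences of build GRCm38.p6 that run from 250 bases before to 50 bases after a transcription start, 5′ to 3′ on the strand of the gene, with CG dinucleotides in capitals. Tmem242 is the nearest flanking gene to Arid1b (chr17:5440211-5440510, minus strand), Rps6ka2 had the smallest p for genotype (chr17:7169865-7170164, plus strand), and Rnaset2b had the second smallest (chr17:6978610-6978909, plus strand, a RefSeq start inside the annotated gene).
Tmem242: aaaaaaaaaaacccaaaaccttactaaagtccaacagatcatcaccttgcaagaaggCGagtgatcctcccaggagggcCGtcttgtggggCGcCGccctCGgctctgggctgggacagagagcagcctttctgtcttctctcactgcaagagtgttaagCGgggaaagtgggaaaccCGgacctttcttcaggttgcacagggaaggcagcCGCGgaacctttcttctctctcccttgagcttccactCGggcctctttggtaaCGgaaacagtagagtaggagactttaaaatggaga
Rps6ka2: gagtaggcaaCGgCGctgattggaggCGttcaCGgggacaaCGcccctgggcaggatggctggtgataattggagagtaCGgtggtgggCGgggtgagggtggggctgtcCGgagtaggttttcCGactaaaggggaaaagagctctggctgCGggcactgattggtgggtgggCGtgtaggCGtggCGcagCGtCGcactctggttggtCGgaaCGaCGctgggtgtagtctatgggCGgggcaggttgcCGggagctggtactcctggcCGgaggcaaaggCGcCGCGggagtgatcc
Rnaset2b: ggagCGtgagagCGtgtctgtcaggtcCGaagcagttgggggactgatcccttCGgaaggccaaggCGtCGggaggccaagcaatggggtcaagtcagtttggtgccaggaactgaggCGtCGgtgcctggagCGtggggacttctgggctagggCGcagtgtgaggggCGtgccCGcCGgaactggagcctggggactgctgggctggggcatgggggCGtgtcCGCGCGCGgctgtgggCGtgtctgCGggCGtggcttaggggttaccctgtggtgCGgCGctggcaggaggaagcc
The letters CG, which read the same on both strands, occurred 11 times in the Tmem242 window, 24 times in that of Rps6ka2 and 23 times in that of Rnaset2b. At least as many occurred in 41.4%, 19.98% and 21.5% of all 32851 promoters of the table. Entries were found for 25 of the 37 flanking genes, with 34 promoters whose median was 20.5 CG against 7 over all promoters. These are mainly windows dense in CG, a description of sequence that was not tested against any measurement.

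Near-identical gene copies matter for reading several flanking genes, because estimated counts divide shared reads between copies. Rnaset2b and Rnaset2a encode T2 ribonucleases, enzymes of acidic compartments that degrade RNA, and their promoters were identical at 254 of 255 aligned bases (99.6%). The 29 bases around the difference, which is in capitals, are shown to illustrate how little separates the copies.
Rnaset2b: gcgtggggacttctGggctagggcgcagt
Rnaset2a: gcgtggggacttctAggctagggcgcagt
Among all stretches of 31 bases in the annotated transcripts of Rnaset2b, 63.1% also occurred in transcripts of other genes, nearly all in Rnaset2a (62.2%). The share was 86.1% for Rnaset2a, 68.5% for Rsph3b, 59.4% for Rsph3a, 79.9% for Tagap1, 54.9% for Tagap and 95.4% for Gm49673. It was 28.97% for Pisd-ps2, 23.8% for Rps6ka2 and 20.5% for Tulp4. Tmem242, Ldhal6b, Zdhhc14, Snx9 and Pde10a shared none. Levels of the first set are therefore uncertain as to which copy they came from.

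Each value below is a normalized read count, the authors' estimated count per gene divided by a size factor of the library. The sum of all genes per mouse was 92.8 to 104% of the mean over mice, and sequencing depth is unknown because the values are not whole reads. Markers of cortical glutamatergic neurons, 5 of 5 listed, were high in every group, with summed levels of 38501 to 54144 over all mice. Markers of the olfactory bulb, which lies in front of this part of the cortex, stood apart in 5 libraries: WT-Veh 1, HT-Veh 4 and WT-Flx 1, 2 and 4. Their summed level ranged from 229 to 10095 in WT-Veh, 248 to 2956 in HT-Veh, 383 to 7831 in WT-Flx and 206 to 318 in HT-Flx, for 9 of 10 markers listed, and Eomes, Barhl2 and Ms4a15 were at 0 in some library. The 5 bulb-rich libraries were 4 WT and 1 HT, so bulb signal and genotype moved together. Results for flanking genes are given below with and without these libraries. Without them, WT-Flx 3 was the only WT-Flx mouse left. Changes in that fit therefore cannot be told apart from the loss of the other WT-Flx mice. Bulk tissue cannot tell fewer cells of a type from less RNA per cell.

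No flanking gene passed the test for genotype. In limma, with log2(normalized read count + 1) as the scale and treatment as a term, 0 of 37 passed an adjusted p of 0.05 in 8 HT against 8 WT mice, where 7 of 17567 genes tested (0.0398%) passed. The smallest adjusted p among flanking genes was 0.269, for Rps6ka2. An unadjusted p under 0.05 was reached by 8 flanking genes (21.6%), beside 11.9% of all genes tested, and these 8 were divided evenly by direction. HT was higher for 4 of them, Pisd-ps2, Zdhhc14, Tulp4 and Rps6ka2, beside 6.42% of all genes. It was lower for the other 4, Gm49797, Rnaset2b, Fndc1 and Mpc1, beside 5.44% of all genes. Over all 37, HT minus WT was positive for 17 and negative for 20, with a median log2 difference of -0.025, and the median size of the difference was 0.13 against 0.11 over all genes. No flanking gene had all 8 HT values outside the range of the 8 WT values, which 0.131% of all genes did.

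The 95% confidence interval of the genotype difference lay within a 1.5-fold change in either direction for 25 of 37 flanking genes. For Tmem242, 0.063 Mb from Arid1b, the log2 difference was -0.025 with an interval from -0.22 to 0.17. For Tagap1, a GTPase-activating protein gene, it ran from -0.13 to 0.06 and for Fgfr1op, a centrosomal protein gene, from -0.08 to 0.19, both genes chosen here after their values were seen. The widest intervals belonged to genes at low levels. Gm49673, at 0 in some mice of both genotypes and chosen here after its values were seen, had an interval from -1.32 to 2.37. Gm6475, a processed pseudogene that reached a count of 10 in just 4 mice, had one from -1.25 to 0.34.

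**Figure D1:**
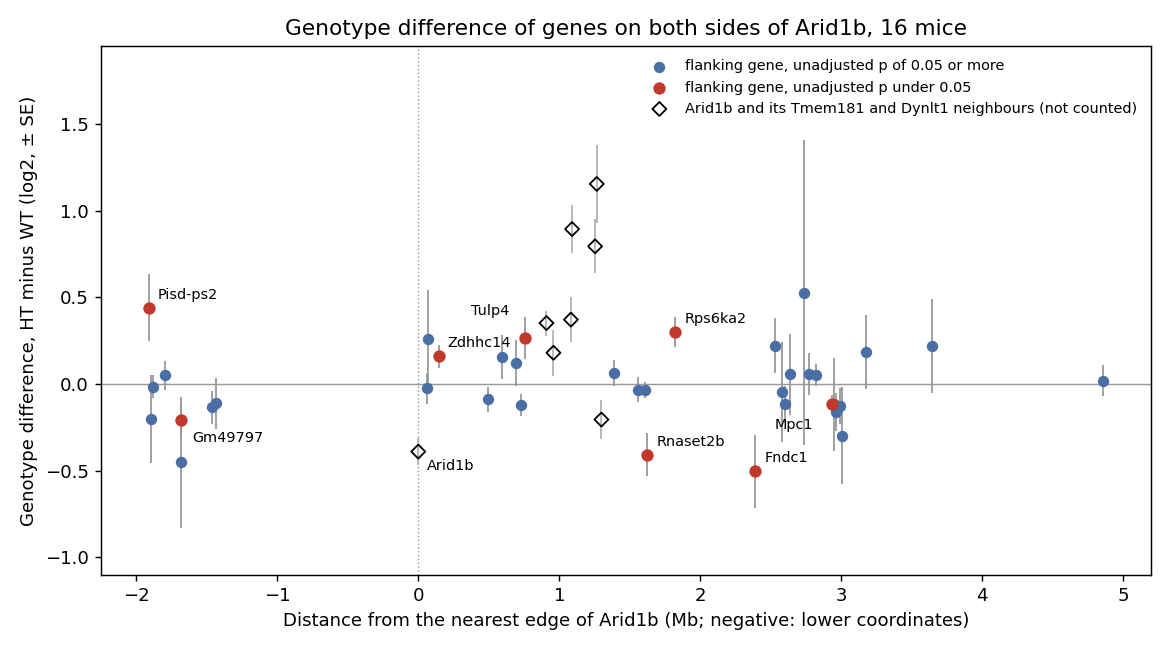
Genotype difference (HT minus WT, log2 with SE, 16 mice) of each of the 37 flanking genes against the distance in Mb from the nearest edge of Arid1b, with negative distances for lower coordinates. Filled red points are the 8 genes at an unadjusted p under 0.05, and open diamonds are Arid1b and the Tmem181 and Dynlt1 copies, which range from -0.39 for Arid1b to 1.16 for Tmem181c-ps.

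The size of the difference did not follow distance in an evident way. Spearman's rho between distance and the absolute log2 difference was 0.048 over the 37 flanking genes and 0.035 over the 29 of the higher side, given as descriptions over genes measured in the same mice. Of the 8 genes on the lower side, 2 reached an unadjusted p of 0.05, and their median log2 difference was -0.12. On the higher side, 2 of 8 genes within 1 Mb did so (median 0.14). So did 2 of 5 genes at 1 to 2 Mb (median -0.033) and 2 of 16 genes at 2 to 5 Mb (median -0.014). Over all genes tested the share was 11.9%, and each of these bins holds few genes. Beyond the window, 7.89% of 38 genes at 5 to 10 Mb and 10.7% of 787 genes in all the rest of the chromosome were at an unadjusted p under 0.05. Qk was the last gene inside the distance limit, at 4.85 Mb, with a log2 difference of 0.018 ± 0.089 (SE).

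The Tmem181 and Dynlt1 copies lie between flanking genes. Tmem181b-ps, at 1.09 Mb, passed the test for genotype in the same fit, with a log2 difference of 0.90 ± 0.14 (SE, limma adjusted p 0.0197), and Tmem181c-ps, at 1.27 Mb, had one of 1.16 ± 0.23 (limma adjusted p 0.0786). Among the other copies the difference ran from -0.20 for Dynlt1f, over 0.18 for Dynlt1a, 0.35 for Tmem181a and 0.37 for Dynlt1b, to 0.80 for Dynlt1c, and none of these passed. Arid1b itself was at -0.39 ± 0.08 (limma adjusted p 0.0969). The flanking genes on either side of these copies were Tulp4 at 0.76 Mb, with 0.26 ± 0.12, and Ezr at 1.39 Mb, with 0.065 ± 0.074 (chosen for its position). Ezr encodes ezrin, which links actin to the plasma membrane, and its counts were 2040.3 ± 177 (SD, n = 8) in WT and 2139 ± 258 in HT.

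All 8 flanking genes within 1 Mb of Arid1b were protein-coding. Tmem242 encodes a membrane protein that assists assembly of the mitochondrial ATP synthase. Its counts were 814, 736, 744 and 749 in WT-Veh, 803, 673, 705 and 626 in HT-Veh, 837, 522, 665 and 571 in WT-Flx, and 655, 603, 637 and 801 in HT-Flx. The genotypes overlapped in both treatments, and all 8 HT mice lay inside the WT range. Ldhal6b, which lies within Tmem242 on the same strand and encodes a lactate dehydrogenase-like protein, was near the limit on low values at 9.4 ± 3.3 in WT and 11.1 ± 3.4 in HT (SD, n = 8).

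Zdhhc14 encodes a palmitoyltransferase, an enzyme that attaches palmitate to proteins and so sets their hold on membranes. Counts were 765, 849, 855 and 784 in WT-Veh and 812, 988, 924 and 862 in HT-Veh. With fluoxetine they were 1014.5, 832, 746 and 852 in WT and 912, 1076, 999 and 905 in HT. Most HT values sat above most WT values in either treatment, though 1 HT mouse exceeded the highest WT mouse. The log2 difference was 0.16 ± 0.07 (SE), a 1.12-fold level, at a limma adjusted p of 0.391 and a p of 0.0253 in an exact permutation test that exchanged genotypes within treatment.

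The cytoskeleton, cilia and membrane traffic group had 8 flanking genes, and 0 of them reached an unadjusted p of 0.05, beside 11.9% of all genes. Their log2 differences ran from -0.16 to 0.16, with 3 positive and 5 negative. Snx9, a sorting nexin that bends membrane during endocytosis, was at 403 ± 35 in WT and 380 ± 37 in HT (SD, n = 8). Tiam2, an exchange factor for the small GTPase Rac, was at 1824 ± 289 in WT and 1657 ± 217 in HT. Synj2, an inositol phosphatase of endocytic vesicles, was at 1903 ± 411 in WT and 2091 ± 286 in HT, with a log2 difference of 0.16 ± 0.13 (SE) that changed sign with the bulb score as a covariate, to -0.047, and without the bulb-rich libraries, to -0.12. Sft2d1, a small Golgi transport protein, was at 546 ± 96 in WT and 484 ± 57 in HT.

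In the RNA and transcription group 2 of 6 flanking genes reached an unadjusted p of 0.05, beside 11.9% of all genes, and none an adjusted one. The group is broad and serves to order the text, and these 2 genes were Tulp4 and the ribonuclease gene Rnaset2b. Tulp4 encodes a tubby-like protein with a SOCS box. Its counts in WT-Veh were 4163, 7323, 7508 and 7389, and in HT-Veh 7272, 7108, 7812 and 6598. In WT-Flx they were 4399, 7234, 6945 and 5558, and in HT-Flx 7506, 8788, 7034 and 7262. The WT mean was set by 3 low mice, WT-Veh 1 and WT-Flx 1 and 4, all with bulb-rich libraries, and the other WT mice were within the HT range. The log2 difference of 0.26 ± 0.12 (SE, limma adjusted p 0.411, exact permutation p 0.0837) was 0.092 with the bulb score as a covariate and 0.045 without those libraries.

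Rnaset2b had the smallest p among the flanking genes that were lower in HT. Its counts were 715, 489, 522 and 454 in WT-Veh and 443, 487, 542 and 503 in HT-Veh, which overlapped. In WT-Flx they were 695, 652, 673 and 779.9, and in HT-Flx 593, 363, 446 and 361, so every HT-Flx mouse was below every WT-Flx mouse. Over both treatments WT averaged 622 ± 119 and HT 467 ± 81 (SD, n = 8), and the log2 difference was -0.41 ± 0.13 (SE, limma adjusted p 0.288, exact permutation p 0.0155). It was -0.25 with the bulb score as a covariate and -0.22 without the bulb-rich libraries, in which Rnaset2b ranged from 503 to 779.9 against 361 to 673 in the other 11. Rnaset2a, its near-identical copy (named after its values were seen), was at 195 ± 36 in WT and 204 ± 38 in HT, a log2 difference of 0.059 ± 0.12.

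The remaining named genes of this group were Scaf8, Gtf2h5 and Qk. Scaf8, which binds the tail of RNA polymerase II and guards against premature transcript ends, was at 1467 ± 198 in WT and 1513 ± 154 in HT (SD, n = 8). Gtf2h5, the smallest subunit of the transcription and DNA repair factor TFIIH, was at 1316 ± 113 in WT and 1210.0 ± 89 in HT. Its log2 difference was -0.12 ± 0.06 (SE, limma adjusted p 0.448, exact permutation p 0.0592), and 4 of 8 HT mice were below the lowest WT mouse. Qk encodes quaking, an RNA-binding protein that controls splicing in glia, and its counts ran from 7465 to 12162 in WT and from 8847 to 11339 in HT.

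Of 5 signalling genes, 2 reached an unadjusted p of 0.05, in opposite directions, beside 11.9% of all genes. Rps6ka2 encodes RSK3, a ribosomal S6 kinase downstream of ERK. Counts were 1707, 2309, 2226 and 2148 in WT-Veh and 2000.0, 2428, 2550.0 and 2249.5 in HT-Veh. They were 1875, 2183, 2175 and 2152 in WT-Flx and 2414, 3292, 3030.2 and 2864 in HT-Flx, where all HT mice were above all WT mice. Over both treatments 6 of 8 HT mice exceeded the highest WT mouse, at means of 2097 ± 201 in WT and 2603 ± 428 in HT (SD, n = 8). The log2 difference was 0.30 ± 0.08 (SE), a 1.23-fold level, at a limma adjusted p of 0.269 and an exact permutation p of 0.00816. It was 0.20 with the bulb score as a covariate and 0.18 without the bulb-rich libraries, whose counts of 1707 to 2249.5 lay low among all mice.

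Fndc1 encodes a fibronectin type III domain protein. In WT-Veh its counts were 277, 132, 239.6 and 214, and in HT-Veh 101, 101, 110.1 and 229.8. In WT-Flx they were 89, 156, 191 and 214, and in HT-Flx 109, 164, 127 and 109.6. The genotypes overlapped in both treatments. HT-Veh 4 and WT-Flx 1, both bulb-rich, lay apart from most mice of their genotype, and WT-Veh 2, which was not bulb-rich, lay within the HT-Flx range. The log2 difference was -0.50 ± 0.21 (SE, limma adjusted p 0.391, exact permutation p 0.0584), a 0.705-fold level. Without the bulb-rich libraries it was -0.77 ± 0.18 (limma adjusted p 0.259), and with the bulb score as a covariate -0.34 ± 0.22 (limma adjusted p 0.979).

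**Figure D2:**
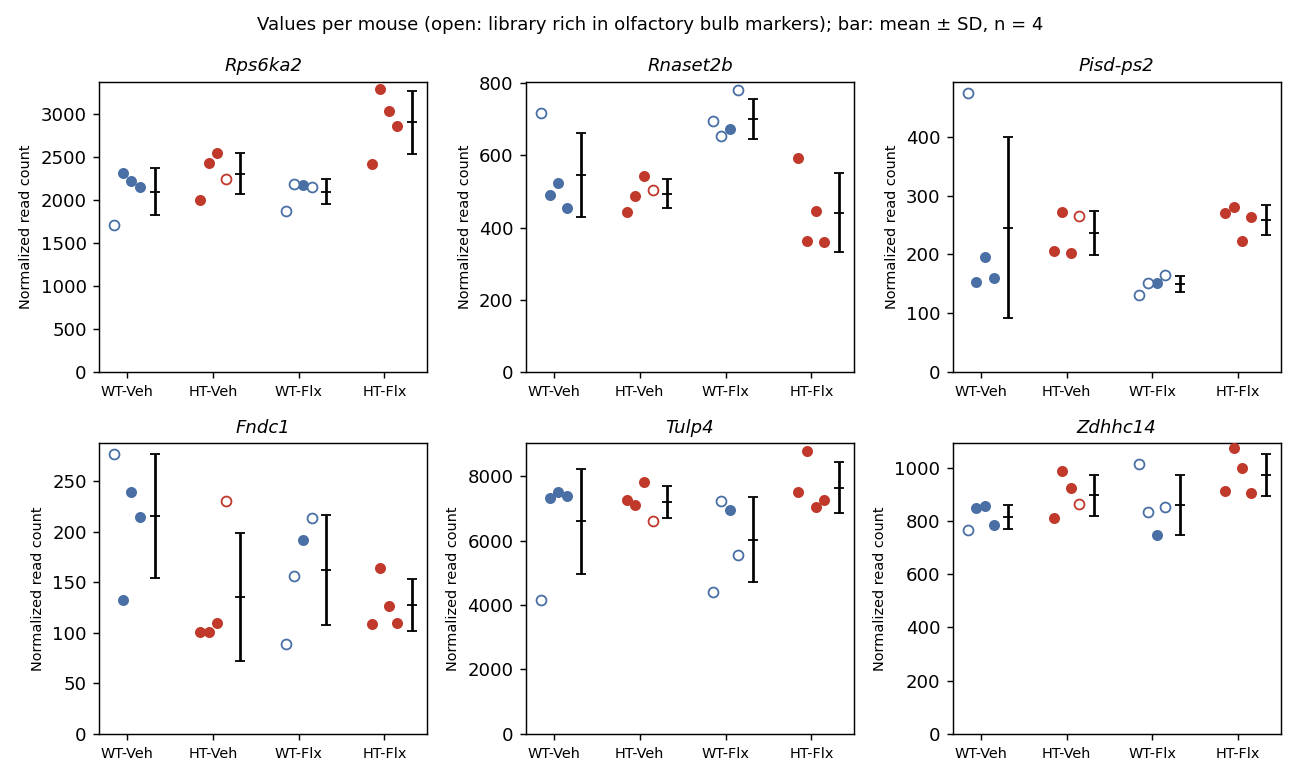
Normalized read count of 6 flanking genes in each of the 16 mice, with WT in blue, HT in red, open circles for the 5 bulb-rich libraries and bars for mean ± SD of 4 mice. Rps6ka2 and Rnaset2b separate by genotype in the fluoxetine groups, Pisd-ps2 has a single WT-Veh mouse at 474, and the low WT values of Tulp4 are open circles.

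Among the mitochondrial and lipid genes, 2 of 5 reached an unadjusted p of 0.05, Zdhhc14 and Mpc1, beside 11.9% of all genes. Mpc1 encodes a subunit of the carrier that brings pyruvate into mitochondria. Counts were 3234, 2642, 2702 and 2649 in WT-Veh, 2582, 2555, 2831 and 2620.0 in HT-Veh, 3052, 2851, 2917 and 2871 in WT-Flx, and 2703, 2713, 2551 and 2595 in HT-Flx. The fluoxetine groups did not overlap, and 5 of 8 HT mice were below the lowest WT mouse. The log2 difference was -0.11 ± 0.05 (SE, limma adjusted p 0.403, exact permutation p 0.0106), a 0.924-fold level. It was -0.067 with the bulb score as a covariate and -0.054 without the bulb-rich libraries. The highest WT counts, 3234 in WT-Veh 1 and 3052 in WT-Flx 1, came from bulb-rich libraries. Tfb1m, an RNA methyltransferase of the mitochondrial ribosome and the nearest flanking gene on the lower side, was at 87 ± 13 in WT and 82 ± 19 in HT (SD, n = 8).

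The other flanking genes were pseudogenes, noncoding RNAs and less studied proteins, and 2 of 13 reached an unadjusted p of 0.05, beside 11.9% of all genes. Pisd-ps2 is a transcribed pseudogene of Pisd, a phosphatidylserine decarboxylase. Its counts in WT-Veh were 474, 153, 195 and 159, and in HT-Veh 205, 272, 202 and 265. In WT-Flx they were 132, 151, 152 and 165, and in HT-Flx 270.3, 279.8, 223 and 263. Apart from WT-Veh 1, all WT mice lay below all HT mice. The log2 difference was 0.44 ± 0.19 (SE, limma adjusted p 0.402, exact permutation p 0.0612). Without WT-Veh replicate 1 it was 0.64, at a limma adjusted p of 0.0325, where 0.0286% of all genes passed 0.05. In no other fit with a single mouse left out did Pisd-ps2 pass. Pisd-ps2 was the farthest flanking gene on the lower side, at 1.91 Mb.

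Gm49797, a noncoding RNA gene that overlaps the end of Scaf8 on the same strand, was at 272 ± 38 in WT and 235 ± 24 in HT (SD, n = 8). The log2 difference was -0.21 ± 0.10 (SE, limma adjusted p 0.410), and it was -0.063 without the bulb-rich libraries. E430024P14Rik, a noncoding RNA gene antisense to Tagap and Rsph3a, was at 48, 63, 56 and 47 in WT-Veh and 79.7, 77, 77 and 83 in HT-Veh. In WT-Flx it was at 89, 54, 70.4 and 75, and in HT-Flx at 51, 93, 65 and 59. The vehicle groups were apart and the fluoxetine groups overlapped. Whether the authors' counts used strand is not given in the sources used here, so reads of this gene and of its antisense partners may not be told apart.

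Within each treatment, the genotype comparisons gave no flanking gene past an adjusted p of 0.05 in limma either. In HT-Veh against WT-Veh, 0 of 35 tested passed, where 0.0178% of all genes did, and 2 were at an unadjusted p under 0.05 beside 4.88% of all genes. These were Fndc1, at -0.71 ± 0.30 (SE, log2), and E430024P14Rik, at 0.56 ± 0.16. E430024P14Rik alone had groups that did not overlap, which 3.84% of all genes had. In HT-Flx against WT-Flx, 0 of 36 passed, where 0.0417% of all genes did, and 5 were at an unadjusted p under 0.05 beside 10.4% of all genes. The log2 differences of these 5 were 0.78 ± 0.14 for Pisd-ps2 (limma adjusted p 0.140), 0.31 ± 0.12 for Synj2, 0.36 ± 0.15 for Tulp4, -0.69 ± 0.16 for Rnaset2b and 0.46 ± 0.11 for Rps6ka2. Of the genes tested here, Pisd-ps2, Rnaset2b, Rps6ka2 and Mpc1 had groups that did not overlap, beside 5.83% of all genes tested. Gm6475 was too low to be tested in this comparison, and its groups did not overlap either. No flanking gene had groups apart in both treatments.

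The vehicle and fluoxetine comparisons share no mice. The direction was the same in both for 25 of the 35 flanking genes tested in each (71.4%), with 10 higher and 15 lower in HT, beside 61.9% of 16558 genes. The repeated direction held for Rps6ka2 (0.14 with vehicle), Rnaset2b (-0.12), Tulp4 (0.16) and Zdhhc14 (0.14, and 0.18 with fluoxetine), each smaller with vehicle. Fndc1 also kept its direction and was larger with vehicle, at -0.71 against -0.30 with fluoxetine. The direction was reversed for E430024P14Rik, at -0.12 with fluoxetine. Bulb-rich libraries were unevenly spread over the fluoxetine groups, with most of them in WT-Flx and none in HT-Flx.

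**Figure D3:**
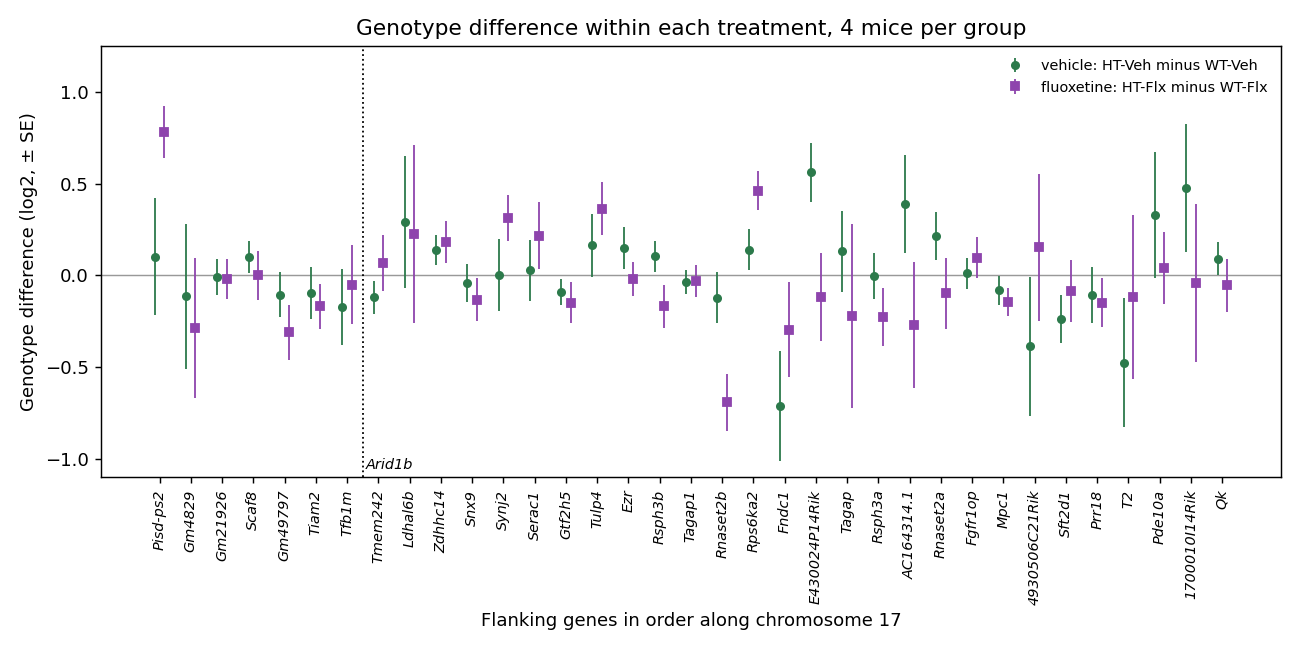
Genotype difference (HT minus WT, log2 with SE) of the 35 flanking genes tested in both treatments, in order along chromosome 17, with vehicle as green circles and fluoxetine as purple squares, 4 mice per group. Pisd-ps2, Rnaset2b and Rps6ka2 lie farther from 0 with fluoxetine, and Fndc1 and E430024P14Rik farther with vehicle.

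The difference between those differences did not pass for any flanking gene. For the genotype by treatment interaction, 0 of 37 passed an adjusted p of 0.05 in limma, as did 0.0% of all genes, and the smallest adjusted p was 0.998. An unadjusted p under 0.05 was reached by 2, beside 4.29% of all genes. These were Rnaset2b, with an interaction of -0.57 ± 0.22 (SE, log2), and E430024P14Rik, with -0.68 ± 0.28. The interaction of Rps6ka2 was 0.32 ± 0.16.

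Early fluoxetine itself moved no flanking gene past the test. In HT-Flx against HT-Veh, 0 of 35 passed in limma, as did 0.0% of all genes, and 3 were at an unadjusted p under 0.05, beside 3.07% of all genes. These were Rps6ka2, 0.33 ± 0.10 (SE, log2), Synj2, 0.24 ± 0.10, and Rnaset2a, -0.34 ± 0.15. In WT-Flx against WT-Veh, 0 of 35 passed, as did 0.0% of all genes, and Rnaset2b alone was at an unadjusted p under 0.05, at 0.38 ± 0.14, beside 4.2% of all genes. WT-Flx held 3 of the 5 bulb-rich libraries and HT-Flx none, and the part of bulb tissue in these differences was not tested beyond the fits that follow.

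The bulb-rich libraries are set beside the rest for 3 flanking genes, as examples with shifted ranges and without a test. Tiam2 was at 1824 to 2249 in the 5 bulb-rich libraries and at 1446 to 1779.5 in the other 11. Tulp4 was at 4163 to 7234 against 6945 to 8788, and Synj2 at 1173 to 1983 against 1690.2 to 2586. Ranges overlapped more widely for other genes, such as Tmem242 (522 to 837 against 603 to 803) and Snx9 (370 to 448 against 317 to 440). With the bulb score as a covariate, 3 of 37 flanking genes were at an unadjusted p under 0.05 (8.11%), Pisd-ps2, Rnaset2b and Rps6ka2, beside 5.41% of all genes. Without the bulb-rich libraries, which left 4 WT and 7 HT mice, 5 of 36 were (13.9%), beside 6.39% of all genes. Those 5 were Pisd-ps2, Zdhhc14, Fndc1, Prr18 and 1700010I14Rik, the last of these and Prr18 named after their values were seen. The WT mice left in that fit were WT-Veh 2, 3 and 4 and WT-Flx 3, so its WT side was mainly vehicle mice. The log2 difference of Pisd-ps2 was 0.44 in all mice, 0.63 with the covariate and 0.53 without the bulb-rich libraries. Those libraries include WT-Veh 1, the only WT mouse above the HT mice for this gene. With any other single mouse left out of the genotype fit, the difference ran from 0.39 to 0.50. Its unadjusted p then rose as high as 0.070 in limma, without WT-Flx 1. No flanking gene passed an adjusted p of 0.05 in all mice or with the covariate.

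**Figure D4:**
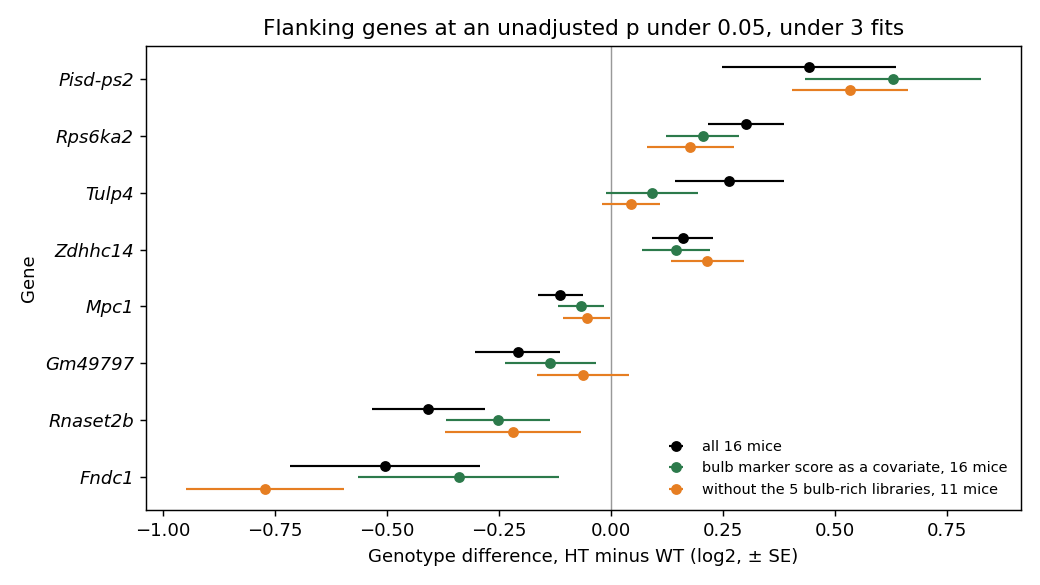
Genotype difference (HT minus WT, log2 with SE) of the 8 flanking genes at an unadjusted p under 0.05, in all 16 mice (black), with the olfactory bulb marker score as a covariate (green) and without the 5 bulb-rich libraries (orange, 11 mice). Tulp4 moves from 0.26 to 0.045 and Fndc1 from -0.50 to -0.77, and no gene of the 8 changes sign.

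Pde10a, a phosphodiesterase that is abundant in the medium spiny neurons of the striatum, varied widely within both genotypes and was chosen after its values were seen. Its counts ran from 1249 to 4079 in WT, with a median of 2478, and from 2118 to 4849 in HT, with a median of 2712. It followed the score of 9 striatum markers over the 16 mice, at Pearson's r of 0.79 (permutation p 0.00024, adjusted 0.00048) and Spearman's rho of 0.75 (permutation p 0.0011, adjusted 0.0021). Without the 2 mice farthest from the median score, r was 0.74. The genotype difference of Pde10a was 0.18 ± 0.21 (SE, log2), within its spread. The same check of Qk against 8 oligodendrocyte markers gave an r of 0.37 (permutation p 0.15, adjusted 0.15) and a rho of 0.48 (permutation p 0.061, adjusted 0.061), and 0.31 for r without the 2 farthest mice. These were the 2 relations computed.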

How the data were processed

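Messenger RNA of 16 mice was sequenced from stranded poly(A) libraries. Per the labels and the study's methods, the authors estimated transcript levels with Salmon 1.1.0 against GRCm38, summed them per gene and normalized them with DESeq2 1.30.1. The labels give R 4.1.1 and the methods an earlier R version. The deposited signal is this normalized estimated count, 1 column per mouse. Its values are not whole reads, so no count model was used here. Whether strand entered the counting is not given in the sources used here.

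Genes were placed with GENCODE M21 (GRCm38), which matched 18411 of 18424 identifiers. A gene was tested when 4 or more mice of the fit were at 10 or above, on log2(value + 1) with limma 3.58.1 (lmFit, eBayes with trend, R 4.3.3) and Benjamini-Hochberg adjustment over all genes tested. Fold changes on this scale understate those of low genes. Genotype over both treatments had treatment as a term. The comparisons within a genotype or treatment used 8 mice each. Exact permutation tests (two-sided, 4900 arrangements, smallest p 0.000408) exchanged genotypes within treatment. Where nothing says which mice shared a litter, p-values measure the spread between these mice.

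Genes were named if they passed a test, were among the 5 nearest on either side, were among the 6 with the smallest p in either direction, were apart in both treatments, or lay at a limit of distance or level. Others are said to be chosen after their values were seen. A gene beyond the distance limit is not reported here. The flanking genes and marker lists were chosen with earlier results of these data known. Bulb-rich libraries had a mean log2 bulb marker score over 2 above the median. Shared 31-base stretches were counted on the transcript strand (Python 3.11.15, scipy 1.17.1). The scripts were tested on simulated data. Alternatives were the pseudocounts 0.1 and 8, no filter, a mean of at least 100, a common upper quartile, quantile normalization, sample quality weights, the bulb score as a covariate, leaving out bulb-rich libraries or each mouse, a replicate block and, for pairwise comparisons, a fit with all 4 groups.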

Additional observations from a re-analysis of the deposited data

Results flagged for a closer look

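In groups of 4 mice, a single mouse stood far from the other 3 of its group at 9 of 80 combinations of named flanking gene and group. The nominal rate of the rule, 1 in 20, would give about 4 for independent values. These combinations come from the same mice and are not independent. No share over all genes is given, so an excess in flanking genes was not tested. WT-Veh replicate 1, a bulb-rich library, accounted for 4 of the 9. It was at 474 for Pisd-ps2 (others 153 to 195), 814 for Tmem242 (736 to 749), 3234 for Mpc1 (2642 to 2702) and 4163 for Tulp4 (7323 to 7508). WT-Flx replicate 1, also bulb-rich, was at 378 for Snx9 (others 439 to 448), 1521 for Gtf2h5 (1231 to 1249) and 1875 for Rps6ka2 (2152 to 2183). HT-Veh replicate 4, the bulb-rich HT library, was at 229.8 for Fndc1 (101 to 110.1). HT-Flx replicate 2, not bulb-rich, was at 1847 for Scaf8 (1385 to 1443). The part of bulb tissue in these values was not tested.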

How the results depend on the processing

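No flanking gene passed an adjusted p of 0.05 in limma under any alternative run, with 1 exception. In the genotype fit over both treatments without WT-Veh replicate 1, Pisd-ps2 did (log2 0.64), beside 0.0286% of all genes. The mouse left out there had the highest Pisd-ps2 count of all mice. The count of flanking genes that passed thus ranged from 0 to 1 as each mouse was left out. Counts at an unadjusted p under 0.05 moved more, and so did the share of all genes tested, given in parentheses. For genotype over both treatments, 8 (11.9%) became 3 (5.41%) with the bulb covariate and 5 (6.39%) without bulb-rich libraries, and 4 to 8 (8.05 to 14.5%) with a mouse left out: 4 without WT-Veh 1, HT-Veh 2, WT-Flx 1, WT-Flx 3 or HT-Flx 2, and 5 without HT-Veh 1 or 3, WT-Flx 4, or HT-Flx 3 or 4. For HT-Veh against WT-Veh, 2 (4.88%) became 1 (4.99%) with a mean of at least 100, 6 (9.99%) with quality weights, 6 (10.9%) without bulb-rich libraries and 1 to 4 (3.32 to 7.43%) with a mouse left out. For HT-Flx against WT-Flx, 5 (10.4%) became 2 (1.97%) with the bulb covariate and 3 to 6 (6.71 to 13.5%) with a mouse left out. For HT-Flx against HT-Veh, 3 (3.07%) became 1 with the covariate (3.50%), without bulb-rich libraries (3.92%) or with all 4 groups in the fit (2.39%), and 1 to 4 (1.97 to 5.63%) with a mouse left out. For WT-Flx against WT-Veh, 1 (4.2%) became 2 with a pseudocount of 8 (4.2%), an upper quartile (3.99%), the covariate (6.64%) or without bulb-rich libraries (9.44%, with 1 WT-Flx mouse left), 5 (13.5%) with quality weights, 3 (5.55%) with all 4 groups and 0 to 5 (2.68 to 10.3%) with a mouse left out. For the interaction, 2 (4.29%) became 6 (11.1%) with quality weights, 1 (4.79%) without bulb-rich libraries and 2 to 6 (3.43 to 9.62%) with a mouse left out, 6 being without WT-Veh 1. The cause was not tested.

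Of 511 values of the 20 named flanking genes under alternatives, 15 changed sign. Qk was at -0.027 after quantile normalization, -0.018 with quality weights and -0.033 without bulb-rich libraries, and ran from -0.049 to 0.059 with a mouse left out, below 0 without WT-Veh 1, HT-Veh 3, WT-Flx 1 or HT-Flx 1. Synj2 was at -0.019 with quality weights, -0.047 with the covariate and -0.12 without bulb-rich libraries. Scaf8 was at -0.0071 with quality weights and Tiam2 at 0.031 with the covariate. Tmem242 was at 6.46e-05 with quality weights and ran from -0.077 to 0.028 with a mouse left out, above 0 without HT-Veh 4 or WT-Flx 1. Gm6475 was not tested without the bulb-rich libraries, since too few mice reached the limit on low values. The median log2 difference stayed negative on the lower side, from -0.17 to -0.015, and on the higher side it ranged from -0.026 to 0.059 and so changed sign.

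The replicate numbers did not pair the mice, as mean correlations of same-numbered deviations were 0.011 to 0.10 over the 4 pairings of groups. Samples correlated best with their own number in 1 or 2 of 4 cases. Under a block on the replicate number, flanking genes at an unadjusted p under 0.05 numbered 8 for genotype over both treatments (14.7% of all genes), 4 for WT-Flx against WT-Veh (7.35%) and 4 for the interaction (5.37%), and 0 flanking genes passed an adjusted p. Depth is unknown, so no counting error is given, and genes near a count of 10 have wide intervals.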
